A study of Mus musculus with 66 samples.

Results

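The genes described are 39 interferon-stimulated genes of the mouse, taken as a list of symbols and found by their Ensembl gene identifiers in the count tables, in which they are 39 of 39179 genes. The rule that lists them uses no measured value, though the members were chosen with earlier results of these data known. They are the transcription factors Stat2, Irf1, Irf7 and Irf9; the ubiquitin-like modifier Isg15 with Usp18 and Trim25; Ifit1, Ifit2 and Ifit3; the membrane proteins Ifitm1, Ifitm2, Ifitm3 and Bst2; and the OAS family genes Oas1a, Oas2, Oas3, Oasl1 and Oasl2. The others are the GTPases Mx1, Mx2, Gbp2, Gbp3, Gbp7, Irgm1 and Igtp, the nucleic acid sensors Ddx58, Ifih1, Dhx58, Zbp1 and Eif2ak2, and the effectors Rsad2, Samhd1, Parp14, Xaf1, Rtp4, Ifi27, Ifi35 and Ifi44. The annotation gives all of them as protein coding except Mx2, which is a polymorphic pseudogene in the reference strain.

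RNA was sequenced from BC57, a mouse bladder cancer cell line grown in DMEM with serum, and from the normal urothelium, or bladder lining, of 9 mice. A pellet of BC57 cells and each mouse's urothelium were divided between freezing (FF) and 24 hours in buffered formalin followed by paraffin embedding (FFPE). Each of the 22 groups holds 3 repeat libraries, 66 in all. For each cell source, the Ovation SoLo kit was used with 50 pg, 250 pg and 2 ng of FFPE and of FF RNA, the SMARTer Pico kit with 250 pg and 2 ng of FFPE and of FF RNA, and poly(A) selection with 1 µg of FF RNA. The labels name no interferon or other treatment. Nor do the sources used here give the genotype, strain or age of the mice, or how the 9 animals were combined. BC57 is a single line, so the contrast with urothelium compares 1 cultured line with 1 source of tissue, and since the labels do not say that repeat libraries came from separate cultures or animals, p-values measure only the spread between these libraries, which may be technical.

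Interferons are cytokines released by cells that sense viral nucleic acid. Type I interferons bind a receptor whose JAK kinases activate STAT proteins, and a complex of STATs with IRF9 binds a DNA element, the interferon-stimulated response element (ISRE), near genes whose products degrade viral RNA, block membrane fusion or modify proteins. Type II interferon acts through STAT dimers at a related element, the gamma-activated site (GAS), and many epithelial and cancer cells keep a low level of these genes without added interferon.

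Upstream sequence is shown for genes that stand apart in the results, since the ISRE is the element through which the type I pathway acts. RefSeq promoter windows of build GRCm38.p6, which span 250 bases before to 50 bases after each transcription start, were found for 30 of the 39 genes. Windows were searched on both strands for the ISRE core TTTCNNTTTC (GAAANNGAAA on the other strand), with overlapping matches counted. The ISRE core occurred in the windows of 18 of the 30 genes, against 3.99% of 27025 genes with a window, and the GAS core TTCNNNGAA in 10 of the 30, against 9.55% of those genes. The 150 bases before the start are printed for 7 genes, 5′ to 3′ on the gene's strand, with the ISRE core in capitals. Oas3, Bst2 and Oas1a had the largest positive log2 fold changes of BC57 over urothelium in poly(A) libraries, Ifitm1, Gbp3 and Gbp7 the most negative, and Isg15 is a widely used marker of an interferon response.
Oas3, chr5:120777660-120777809, minus strand: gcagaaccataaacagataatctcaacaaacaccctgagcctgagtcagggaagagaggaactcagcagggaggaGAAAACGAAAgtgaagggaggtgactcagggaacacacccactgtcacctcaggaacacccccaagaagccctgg
Bst2, chr8:71537473-71537622, minus strand: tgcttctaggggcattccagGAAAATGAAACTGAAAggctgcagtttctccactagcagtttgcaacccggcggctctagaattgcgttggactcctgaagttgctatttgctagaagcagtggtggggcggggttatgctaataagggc
Oas1a, chr5:120907526-120907675, minus strand: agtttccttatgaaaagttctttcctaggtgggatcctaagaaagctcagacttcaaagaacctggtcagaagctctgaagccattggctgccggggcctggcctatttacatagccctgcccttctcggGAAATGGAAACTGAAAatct
Isg15, chr4:156200819-156200968, minus strand: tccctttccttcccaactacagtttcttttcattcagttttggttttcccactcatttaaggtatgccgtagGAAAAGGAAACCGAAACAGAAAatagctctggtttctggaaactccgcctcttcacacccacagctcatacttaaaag
Ifitm1, chr7:140967926-140968075, plus strand: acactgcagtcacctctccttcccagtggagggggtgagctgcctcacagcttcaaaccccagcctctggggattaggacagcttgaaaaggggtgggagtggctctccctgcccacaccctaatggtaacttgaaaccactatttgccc
Gbp3, chr3:142559894-142560043, plus strand: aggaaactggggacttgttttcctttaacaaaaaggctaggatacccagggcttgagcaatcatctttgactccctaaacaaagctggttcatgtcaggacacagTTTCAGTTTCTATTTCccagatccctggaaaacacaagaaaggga
Gbp7, chr3:142530186-142530335, plus strand: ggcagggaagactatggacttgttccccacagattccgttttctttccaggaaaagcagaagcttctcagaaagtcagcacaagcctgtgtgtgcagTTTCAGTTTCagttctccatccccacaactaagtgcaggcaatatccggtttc
The windows of Oas3 and Gbp7 hold 1 match each, and those printed for Bst2, Oas1a and Gbp3 hold 2 each. That of Isg15 holds 3, and the letters of the core are not in the Ifitm1 window. Gbp3 has a further RefSeq window, chr3:142560106-142560405, which holds 0 matches. A gene with several windows was counted by the window with the most matches. The RefSeq start used for Ifitm1 lies inside the gene as GENCODE annotates it, and the sequence before the GENCODE start was not searched. Of the 18 genes with the core in the whole window, 6 were higher, 11 lower and 1 not called in BC57 poly(A) libraries. Of the 12 with a window but no core, 6 were higher, 5 lower and 1 not called. Among all genes tested in those libraries 91.3% were called, 42.8% higher and 48.5% lower. Whether direction goes with the core was not tested. Windows were not found for Dhx58, Ifi27, Mx1, Mx2, Oas2, Parp14, Rtp4, Usp18 and Zbp1.

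Libraries differed greatly in depth. Total counts were 18499591 to 36187226 in the 6 poly(A) libraries, 928722 to 4706030 in the 36 Ovation libraries and 651879 to 7152648 in the 24 SMARTer libraries. All 39 members had a count in each poly(A) library, and between 27 and 39 had one in each low-input library. Some libraries stood apart from the others of their group. Library 3 of the urothelium SMARTer FFPE 2 ng group had 780106 counts and 30912 genes with a count, against 20100 and 19739 in libraries 1 and 2, and its urothelial marker genes summed to 809 CPM (counts scaled to the library total), against 3265 and 3398. Library 3 of the BC57 SMARTer FFPE 2 ng group had 26973 genes with a count, against 18794 and 18855. Library 3 of the BC57 SMARTer FF 2 ng group had 21989, against 17357 and 17707. Library 3 of the urothelium SMARTer FFPE 250 pg group had the fewest counts of the series, 651879. Its urothelial marker genes summed to 623 CPM, against 3204 and 3457 in libraries 1 and 2. Library 3 of the urothelium Ovation FF 250 pg group had a count for 29 members, against 36 in each of its other libraries.

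The first question was how the members differed between BC57 cells and urothelium in the deepest libraries, those made by poly(A) selection. BC57 cells carried more RNA of 4 of the 5 OAS genes, of Bst2, Samhd1, Irf1 and Isg15, and less of Ifitm1, the guanylate-binding genes Gbp2, Gbp3 and Gbp7, and the transcription factor genes Stat2, Irf7 and Irf9. Of the 39 members, all of which were tested by edgeR's quasi-likelihood test, 12 were higher in BC57, 23 were lower and 4 were not called at an adjusted p under 0.05. The BC57 and urothelium libraries did not overlap for 35 members. These counts stand against a background in which 91.3% of 17934 genes tested were called (42.8% higher, 48.5% lower) and in which 91% did not overlap, so the share of members called, 89.7%, was near that of all genes. The members' median log2 fold change was -0.34, against -0.12 over all genes, and the median of its size without sign was 1.04, against 1.25. With the 6 libraries thinned to the lowest total count of the series, 21 members passed the low-count filter and 16 were called, 6 higher and 10 lower, all 16 in the same direction as at full depth. The share of all genes called after thinning is not given. In bulk RNA, fewer cells of a type and less RNA per cell cannot be told apart.

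The urothelium RNA also held RNA of other cell types. All 6 urothelial markers were lower in BC57, where they summed to 215 to 219 CPM, against 9279 to 10107 CPM in urothelium. Of 9 leukocyte markers, 7 were tested, 6 were lower in BC57 and Cd79a was higher, and the list summed to 20.8 to 21.6 CPM in BC57 and 158 to 167 CPM in urothelium. Ptprc, the pan-leukocyte antigen CD45, had 5 counts over the BC57 libraries and 733 over the urothelium libraries, and Adgre1 of macrophages had 1 and 665. The 4 fibroblast markers summed to 4.48 to 6.34 CPM in BC57 and 6905 to 7275 CPM in urothelium, the 3 endothelial markers to 0.639 to 0.959 and 186 to 191 CPM, and the 3 smooth muscle markers to 1.56 to 1.74 and 138 to 149 CPM. The part of these cells in the members' differences was not tested.

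**Figure D1:**
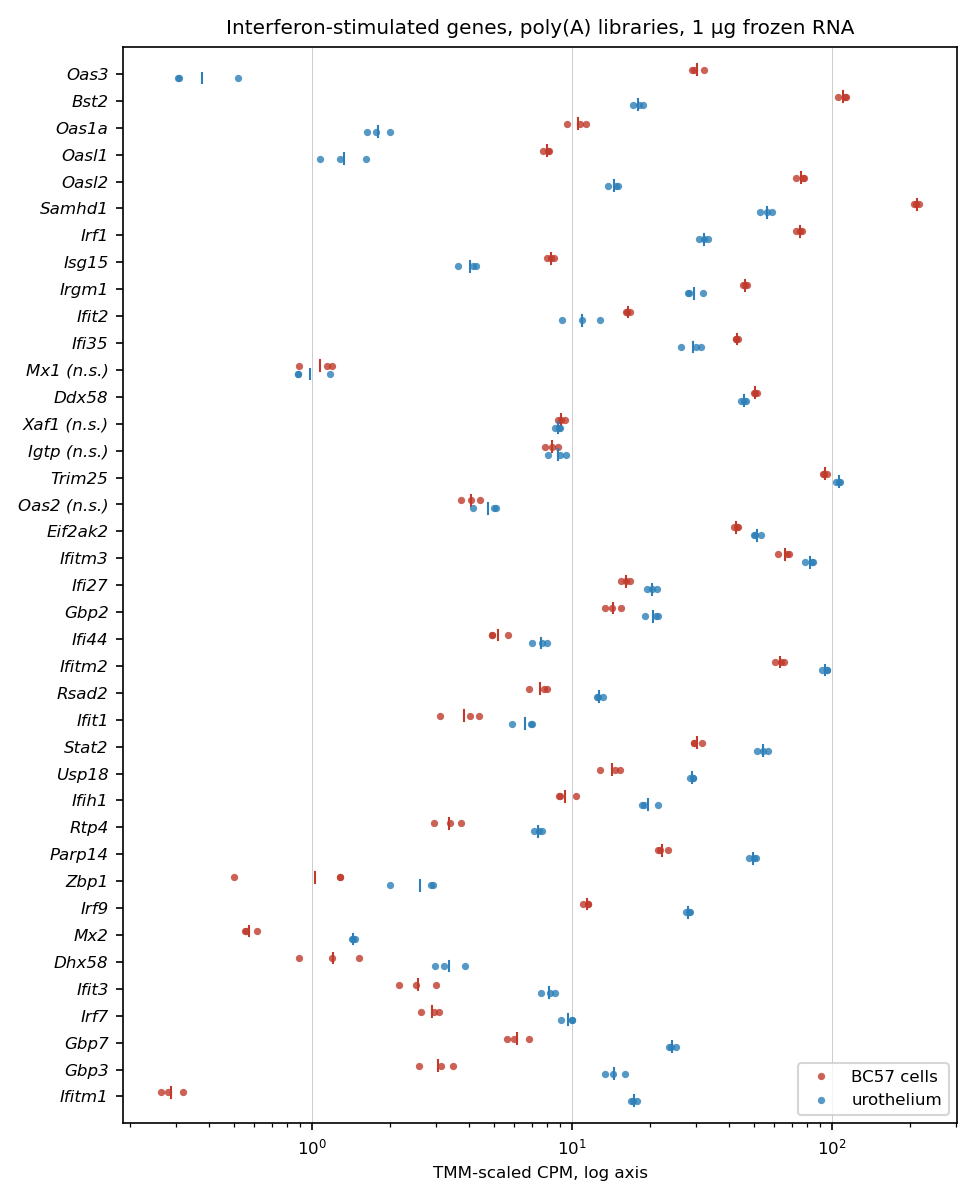
Level of the 39 interferon-stimulated genes in each poly(A) library, in TMM-scaled CPM on a log axis, with a point per library and a short line at the mean of 3 libraries, for BC57 cells and urothelium. Genes marked n.s. were not called (adjusted p of 0.05 or more); Oas3 and Bst2 lie far to the right in BC57, Ifitm1 far to the left, and 35 genes have libraries that do not overlap.

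The OAS family encodes 2′-5′ oligoadenylate synthetases, which on binding double-stranded RNA make the messenger that activates RNase L, together with OAS-like proteins. Its 5 genes lie on chromosome 5 and were the group most often higher in BC57, with 4 higher, 0 lower and 1 not called and a median log2 fold change of 2.57. Oas3 had 28.8, 29.3 and 32.2 CPM in the BC57 libraries, against 0.306, 0.308 and 0.520 CPM in the urothelium libraries. It was thus high in every BC57 library and low in every urothelium library, with a log2 fold change of 6.24 (SE 0.135, adjusted p = 2.238e-20). Oas1a had 10.7, 9.58 and 11.3 CPM in BC57, against 1.99, 1.77 and 1.62 CPM in urothelium (log2 fold change 2.59, SE 0.121, adjusted p = 1.692e-14). Oasl1, which in mouse cells limits translation of Irf7 mRNA, had 7.70, 8.14 and 8.09 CPM in BC57, against 1.07, 1.61 and 1.28 CPM in urothelium (2.57, SE 0.136, adjusted p = 1.417e-13). Oasl2 had the highest level of the family by CPM, with 72.8, 78.2 and 77.6 CPM in BC57, against 13.7, 14.99 and 14.8 CPM in urothelium (2.39, SE 0.0546, adjusted p = 6.146e-20). All 4 genes separated the cell sources in every library. Oas2, which lies beside Oas3, was the exception, with 4.09, 3.73 and 4.42 CPM in BC57, against 5.10, 4.15 and 5.01 CPM in urothelium, overlapping values that did not pass the test (log2 fold change -0.20, SE 0.12, adjusted p = 0.12). Oas1a belongs to a set of close gene copies in the mouse, and reads may be shared with the copies.

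The membrane factors split. Bst2, or tetherin, which holds budding virions at the cell surface, had 113, 106 and 112 CPM in BC57, against 17.1, 18.1 and 18.7 CPM in urothelium. The libraries lay far apart, with a log2 fold change of 2.61 (SE 0.0516, adjusted p = 4.95e-21). The IFITM proteins, which hinder fusion of viral with cell membranes, went the other way. Ifitm1 had 0.263, 0.279 and 0.320 CPM in BC57, against 17.1, 16.8 and 17.8 CPM in urothelium, and its log2 fold change of -5.88 (SE 0.143, adjusted p = 1.669e-19) was the most negative of the 39. Ifitm2 and Ifitm3, its neighbours on chromosome 7, were lower by much less, with 63.0 ± 2.55 CPM in BC57 and 93.9 CPM in urothelium for Ifitm2 (mean ± SD, n = 3; log2 fold change -0.58) and 65.8 ± 3.42 CPM in BC57 and 82.1 CPM in urothelium for Ifitm3 (-0.32). The 3 genes are similar in sequence, and reads may be shared among them. Ifitm2 shares 40.9% of its exon bases with another annotated gene on the same strand, Gm45717, which is not among the genes counted.

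Among the transcription factors, Irf1, which binds promoters of interferon-response genes and of antigen processing, was the single one that was higher. It had 72.8, 76.7 and 75.3 CPM in BC57, against 32.05, 30.8 and 33.4 CPM in urothelium, which did not overlap (log2 fold change 1.22, SE 0.0479, adjusted p = 7.757e-16). The components of the type I pathway's own transcription complex were lower. Stat2 had 31.5, 29.5 and 29.4 CPM in BC57, against 56.5, 51.4 and 54.1 CPM in urothelium (-0.84, SE 0.0513, adjusted p = 1.943e-12). Irf9, the DNA-binding partner of the complex, had 11.5, 11.5 and 11.1 CPM in BC57, against 27.3, 28.3 and 28.2 CPM in urothelium (-1.30, SE 0.0607, adjusted p = 1.582e-14). Irf7, the amplifier of interferon-alpha transcription, had 2.95, 2.62 and 3.08 CPM in BC57, against 9.03, 9.96 and 9.97 CPM in urothelium (-1.73, SE 0.106, adjusted p = 1.845e-12). Every urothelium library exceeded every BC57 library for these 3 genes.

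The ISG15 system, in which a ubiquitin-like protein is joined to other proteins and removed again, was also split. Isg15 itself had 8.00, 8.53 and 8.32 CPM in BC57, against 4.29, 3.65 and 4.16 CPM in urothelium, a higher level in every BC57 library (adjusted p = 5.559e-09). Usp18, the enzyme that removes ISG15 and damps signalling at the type I receptor, had 14.6, 15.3 and 12.7 CPM in BC57, against 29.1, 29.3 and 28.5 CPM in urothelium (log2 fold change -1.04, SE 0.0656, adjusted p = 3.121e-12). Trim25, a ubiquitin ligase that acts on the sensor RIG-I, was lower by only -0.18. The IFIT genes encode proteins that bind the ends of foreign RNA. Ifit3 had 2.16, 3.01 and 2.50 CPM in BC57, against 8.22, 7.57 and 8.62 CPM in urothelium (-1.72, SE 0.122, adjusted p = 2.375e-11), and Ifit1 was lower by -0.81, whereas Ifit2 was higher by 0.60. The 3 genes, all on chromosome 19, thus differed in direction.

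Of the 7 GTPase genes, 1 was higher, 4 were lower and 2 were not called. The guanylate-binding proteins, which attack the membranes around intracellular pathogens, accounted for 3 of the lower genes. Gbp3 had 2.57, 3.12 and 3.49 CPM in BC57, against 15.9, 14.4 and 13.3 CPM in urothelium (log2 fold change -2.24, SE 0.111, adjusted p = 4.266e-14). Gbp7 had 5.60, 6.85 and 5.97 CPM in BC57, against 25.004, 23.6 and 24.1 CPM in urothelium (-2.004, SE 0.0766, adjusted p = 4.626e-16). Both separated the sources fully, and Gbp2 was lower by -0.49. Irgm1, an immunity-related GTPase that controls other members of its family, was higher by 0.67, and Igtp of the same family was not called (-0.06, adjusted p = 0.549). Mx1, the influenza restriction factor, was near 1 CPM in both sources (1.07 in BC57 and 0.982 in urothelium, adjusted p = 0.382), and Mx2 was lower at 0.574 CPM in BC57, against 1.44 CPM in urothelium.

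Sensors and remaining effectors were mostly lower. Ifih1, the sensor of long double-stranded RNA also called MDA5, had 8.93, 10.4 and 8.96 CPM in BC57, against 21.4, 18.9 and 18.5 CPM in urothelium, which did not overlap (log2 fold change -1.07). Dhx58, the related regulator LGP2, Zbp1, a sensor of Z-form nucleic acid, and Eif2ak2, the kinase PKR, were lower by -1.42, -1.25 and -0.26. Ddx58, which encodes the RNA sensor RIG-I, was higher by only 0.15 (adjusted p = 0.00355), and its estimate was -0.22 and not called when the libraries were thinned. Among 8 further effectors, Samhd1, which hydrolyses the nucleotides needed for reverse transcription, had 207, 210 and 216 CPM in BC57, against 58.9, 52.8 and 56.3 CPM in urothelium, the highest CPM of any member in BC57 (1.92, SE 0.0441, adjusted p = 6.661e-20). Ifi35 was also higher, by 0.55. Parp14, an ADP-ribosyltransferase, had 21.7, 23.3 and 21.4 CPM in BC57, against 50.9, 49.9 and 47.97 CPM in urothelium (-1.17), without overlap. Rtp4 (-1.17), Rsad2, the antiviral enzyme viperin (-0.73), Ifi44 (-0.53) and Ifi27 (-0.34) were lower, and Xaf1 was not called (0.04, adjusted p = 0.669).

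Levels can be compared between genes after division by exon length. On the scale of CPM per kilobase of exon, Bst2 was first in BC57 at 122, followed by Ifitm3 at 97.1 and Ifitm2 at 96.2. In urothelium the same 3 genes led in another order, with Ifitm2 at 143, Ifitm3 at 121 and Bst2 at 19.9. Oas3 took rank 18 of 39 in BC57 at 4.26 and rank 39 in urothelium at 0.0534. Ifitm1 took rank 38 in BC57 at 0.262 and rank 6 in urothelium at 15.8. Samhd1, with its long transcript, was at 23.1 in BC57 and 6.12 in urothelium.

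The genes that carry the interferon signal to these members were read from a list of 28 pathway genes. In the poly(A) libraries 20 of them were tested, with 6 higher in BC57, 13 lower and 1 not called. Of all genes tested there, 91.3% were called, 42.8% higher and 48.5% lower, so most genes of any list would be called. Of 9 receptor and kinase genes, 8 were lower and Jak2 was higher (76.7 ± 2.51 CPM in BC57 and 55.1 ± 3.06 CPM in urothelium, mean ± SD, n = 3, log2 fold change 0.48). Ifnar2, a chain of the type I receptor, averaged 14.8 ± 0.306 CPM in BC57 and 36.8 ± 0.296 CPM in urothelium (-1.32), and Il10rb, which the lambda interferon receptor shares, was lower by -1.97. Of 8 sensor and adaptor genes, 4 were higher, 3 lower and Mavs was not called (0.06). Cgas, the cytosolic DNA sensor, averaged 12.3 ± 0.314 CPM in BC57 and 2.97 ± 0.0871 CPM in urothelium (2.04), and Tlr3, the endosomal receptor for double-stranded RNA, 195 ± 7.21 CPM in BC57 and 62.2 ± 6.14 CPM in urothelium (1.66). Ikbke, a kinase that activates interferon regulatory factors, was lower, with 7.11 ± 0.341 CPM in BC57 and 46.1 ± 1.11 CPM in urothelium (-2.68), as was Tmem173, the adaptor STING (-1.62). Among inhibitors, Socs1 was higher by 0.77, and Socs3 and Irf2 were lower by -0.18 and -0.89. The 8 ligand genes did not pass the low-count filter. Ifnb1 had 2 counts over the 3 BC57 libraries and 0 over the 3 urothelium libraries, and Ifne, an epithelial interferon, had 1 count in BC57 and 44 in urothelium.

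The same contrast was then read from the 10 low-input comparisons. In none of them was a member called against its poly(A) call, and of the members not called there, Xaf1 was lower in 2 comparisons and Oas2 in 1. How many were called differed between kits and inputs. With Ovation at 2 ng, 23 of 32 members tested were called in FFPE RNA (7 higher, 16 lower, against 77% of all genes tested, 36.7% higher and 40.3% lower) and 21 of 30 in FF RNA (7 higher, 14 lower, against 79%, 37.6% and 41.4%). At 250 pg the counts were 15 of 32 in FFPE (5 higher, 10 lower, against 52.2%, 24% and 28.2%) and 12 of 33 in FF (5 higher, 7 lower, against 48%, 21.6% and 26.4%). At 50 pg they were 8 of 30 in FFPE (2 higher, 6 lower, against 33.5%, 14.8% and 18.7%) and 12 of 31 in FF (6 higher, 6 lower, against 45.2%, 20.2% and 24.9%). With SMARTer at 2 ng they were 9 of 37 in FFPE (4 higher, 5 lower, against 29.6%, 14.2% and 15.4%) and 25 of 34 in FF (10 higher, 15 lower, against 77.6%, 37.3% and 40.3%), and at 250 pg 1 of 28 in FFPE (0 higher, 1 lower, against 9.21%, 3.6% and 5.61%) and 13 of 33 in FF (6 higher, 7 lower, against 51.4%, 23.9% and 27.5%). In each of the 10 comparisons the share of members called was below that of all genes, by the least in SMARTer FF libraries of 2 ng, where 73.5% of the members tested were called.

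Set against the 35 poly(A) calls, the number of members with the same call ran from 1 of 26 tested with SMARTer FFPE at 250 pg to 24 of 32 with SMARTer FF at 2 ng. Over all genes called in poly(A) libraries and tested again, the share with the same call was 9.87% and 82.6% in these comparisons, against 3.85% and 75% of the members. The poly(A) sign was kept by 24 of those 26 and 32 of those 32 members, 92.3% and 100%, against 82.2% and 96.6% of all such genes. Of the 21 members that differed by at least 2-fold in poly(A) libraries, all 18 tested were called again with SMARTer FF at 2 ng and all 15 with Ovation FFPE at 2 ng, but 5 of 13 with Ovation FFPE at 50 pg. Among all genes of that size in poly(A) libraries, 96.7%, 94.4% and 55.7% were called again in these comparisons. The members' shares thus lay near those of all genes with SMARTer FF and Ovation FFPE at 2 ng, and below them with Ovation FFPE at 50 pg. With SMARTer FFPE at 2 ng, 8 of 20 such members were called again, 40% against 49.3% of all such genes. At 250 pg of FF RNA the members' share was 68.8% with either kit, against 75.8% of such genes with Ovation and 78.7% with SMARTer. With Ovation FF at 50 pg, 10 of 14 such members were called again, 71.4% against 72.8% of all such genes. Across the 34 members tested with SMARTer FF at 2 ng, log2 fold changes and those of poly(A) libraries had a Pearson r of 0.99, and across the 30 tested with Ovation FFPE at 50 pg an r of 0.76. These correlations describe genes measured in the same RNA, which are not independent.

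**Figure D2:**
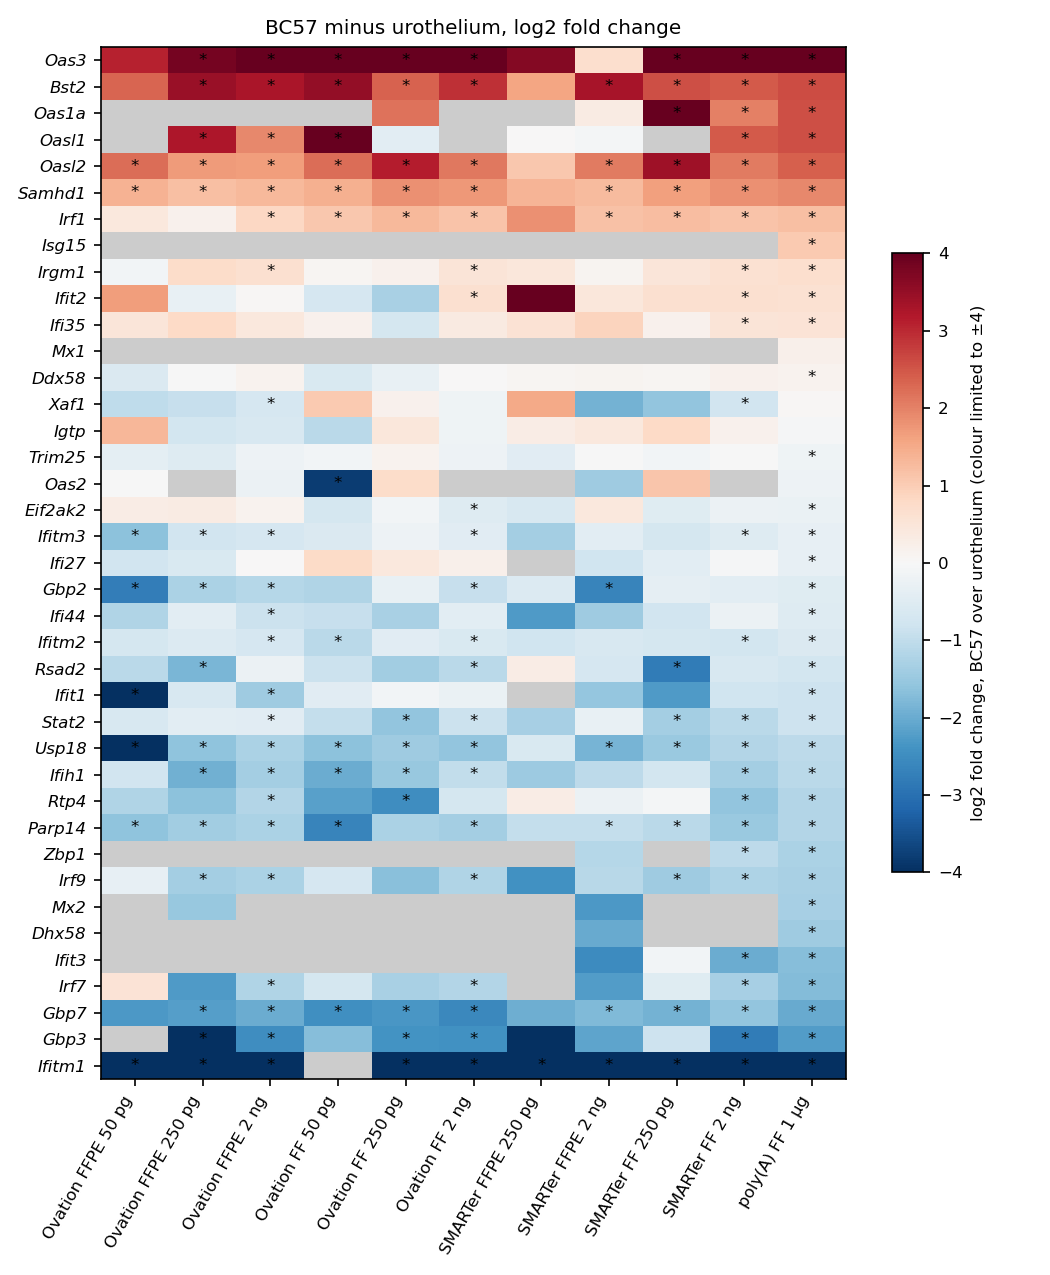
Log2 fold change of BC57 over urothelium for the 39 genes (rows) in the 10 low-input comparisons and the poly(A) comparison (columns), with the colour limited to ±4. A star marks an adjusted p under 0.05 and grey marks a gene that did not pass the low-count filter; no gene is starred in both directions, and stars are fewest with SMARTer FFPE at 250 pg, where 1 gene was called.

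In Ovation libraries of 2 ng the members that stood out in poly(A) libraries stood out again. With FFPE RNA, Oas3 had 22.7, 22.6 and 30.3 CPM in BC57, against 0, 0.372 and 0.630 CPM in urothelium. Those are 280 counts against 3, a ratio of 76.0 with a 95% exact counting interval of 25.7 to 371 (adjusted p = 1.53e-17). With FF RNA, Oas3 had 13.5, 17.7 and 20.5 CPM in BC57, against 0, 0 and 0.893 CPM in urothelium, or 118 counts against 2 (ratio 51.3, 13.9 to 428). Oas3 was near its floor in every urothelium library of this kit and input. Bst2 had 36.7, 44.6 and 36.1 CPM in BC57 FFPE libraries, against 2.57, 4.09 and 5.35 CPM in urothelium FFPE libraries (log2 fold change 3.27), and 39.7, 42.2 and 33.2 CPM in BC57 FF libraries, against 6.61, 3.14 and 5.36 CPM in urothelium FF libraries (2.92). Oasl2 was higher by 1.68 in FFPE and by 2.10 in FF libraries. All 3 genes kept the libraries of the sources apart.

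Ifitm1, Gbp7 and Gbp3, of large negative fold change in poly(A) libraries, were lower at 2 ng too. Ifitm1 had 0.270, 0 and 0 CPM in BC57 FFPE libraries, against 11.6, 13.4 and 13.9 CPM in urothelium FFPE libraries, or 1 count against 116 (143 times lower, 25.1 to 5679). In FF libraries it had 3 counts in BC57 and 70 in urothelium (26.9 times lower, 8.82 to 133). Gbp7 had 8.91, 8.33 and 8.33 CPM in BC57 FFPE libraries, against 33.4, 35.3 and 33.1 CPM in urothelium FFPE libraries (log2 fold change -1.99). In FF libraries Gbp7 had 7.60, 5.90 and 2.62 CPM in BC57, against 41.3, 25.1 and 31.7 CPM in urothelium (-2.58). Gbp3 was lower by -2.47 in FFPE and by -2.42 in FF libraries. No library of BC57 reached the lowest urothelium library for Ifitm1 or Gbp7.

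At 250 pg of Ovation input the spread between libraries widened. With FFPE RNA, Oas3 had 16.5, 19.999 and 31.8 CPM in BC57, against 3.96, 0 and 0.779 CPM in urothelium (log2 fold change 3.82), and Bst2 had 26.4, 29.999 and 22.6 CPM in BC57, against 3.96, 3.03 and 0.260 CPM in urothelium (3.46). Oasl1 had 5.22, 10.3 and 4.52 CPM in BC57, against 0, 0.673 and 1.30 CPM in urothelium (3.24, adjusted p = 0.0181), and it was not called without BC57 library 2, urothelium library 1 or urothelium library 2 (adjusted p 0.0523 to 0.112). Ifitm1 was at 0 in all 3 BC57 libraries, against 22.5, 27.3 and 9.08 CPM in urothelium, and so at least 75.2-fold lower, taking a floor of 3 counts over the group (adjusted p = 2.629e-05). Gbp3 had 0.290, 0 and 1.51 CPM in BC57, against 15.8, 8.41 and 18.2 CPM in urothelium (-4.38), and Gbp7 had 6.97, 7.35 and 8.60 CPM in BC57, against 41.4, 27.9 and 36.6 CPM in urothelium (-2.20). The order of the sources was thus the same in every library for these 6 genes.

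With FF RNA at 250 pg, Oas3 had 16.2, 16.2 and 14.8 CPM in BC57 and 0 in all 3 urothelium libraries, 158 counts against 0, at least 48.1-fold higher (adjusted p = 0.000908). Bst2 had 46.6, 36.2 and 47.2 CPM in BC57, against 5.16, 5.79 and 14.2 CPM in urothelium (log2 fold change 2.37). Oasl2 had 68.0, 86.3 and 69.3 CPM in BC57, against 14.6, 10.6 and 0 CPM in urothelium (3.14, adjusted p = 0.0139), a call that ended without BC57 library 2 (adjusted p = 0.0571). The urothelium library at 0 for Oasl2 is library 3, which stood apart. Ifitm1 had 1 count in BC57 and 118 in urothelium (129 times lower, 22.8 to 5150). Rtp4, a chaperone for membrane receptors, had 1.99, 4.53 and 0.869 CPM in BC57, against 9.11, 15.3 and 16.9 CPM in urothelium (-2.48, adjusted p = 0.0259), and Gbp3 had 0.853, 6.79 and 2.32 CPM in BC57, against 16.7, 9.87 and 26.1 CPM in urothelium (-2.40, adjusted p = 0.0385). Both were lower in every BC57 library, yet Rtp4 was not called without BC57 library 1, BC57 library 3 or urothelium library 2 (adjusted p 0.0732 to 0.106), nor Gbp3 without BC57 library 1, BC57 library 3 or urothelium library 1 (0.0763 to 0.136). Without urothelium library 3, 21 members were called in place of 12 (7 higher, 14 lower), among them Oasl1 at 3.84, where the estimate with that library was -0.44, and Parp14 at -1.68. Leaving out any other library gave 8 to 10 calls. The share of all genes called without urothelium library 3 is not given, so the rise cannot be read as particular to the members.

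At 50 pg of Ovation input, 8 members were called with FFPE RNA and 12 with FF RNA. With FFPE RNA, Oasl2 had 74.0, 60.6 and 87.7 CPM in BC57, against 3.04, 26.8 and 16.7 CPM in urothelium (log2 fold change 2.24, adjusted p = 0.0163, and 0.05002 without BC57 library 3), and Samhd1 had 182, 172 and 188 CPM in BC57, against 58.7, 73.7 and 74.1 CPM in urothelium (1.39). These were the 2 higher members, and neither overlapped. Ifitm1 was at 0 in BC57, against 4.39, 30.4 and 33.98 CPM in urothelium (at least 95.6-fold lower), and Usp18 had 0.558, 2.60 and 1.62 CPM in BC57, against 29.7, 53.03 and 35.2 CPM in urothelium (-4.58). Gbp2 had 1.40, 10.2 and 4.86 CPM in BC57, against 43.2, 26.3 and 44.2 CPM in urothelium (-2.77, adjusted p = 0.0141, and 0.0513 without urothelium library 3). With FF RNA, Oas3 had 10.2, 19.7 and 37.7 CPM in BC57 and 0 in urothelium (at least 64.8-fold higher), Oasl1 had 57 counts in BC57 and 2 in urothelium (38.6 times higher, 10.2 to 327), and Bst2 had 65.1, 34.2 and 42.6 CPM in BC57, against 5.45, 1.84 and 4.92 CPM in urothelium (3.52). Parp14 had 9.15, 10.1 and 7.67 CPM in BC57, against 47.7, 69.8 and 52.9 CPM in urothelium (-2.64). All BC57 libraries lay on one side of all urothelium libraries for these 4 genes.

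The other lower members named at 50 pg of FF RNA each lost the call when any of several single libraries was left out. Oas2 had 0, 0.506 and 2.09 CPM in BC57, against 3.75, 11.1 and 22.6 CPM in urothelium (log2 fold change -3.78, adjusted p = 0.0156), the only one of the 7 comparisons testing Oas2 in which it was called, and it was not called without BC57 library 1, BC57 library 2 or urothelium library 3 (adjusted p 0.053 to 0.0862). Gbp7 had 1.02, 1.52 and 8.37 CPM in BC57, against 14.3, 23.7 and 21.8 CPM in urothelium (-2.47, adjusted p = 0.0251), and was not called without BC57 library 1, BC57 library 2, urothelium library 2 or urothelium library 3 (0.0648 to 0.0888). Ifitm1 did not pass the low-count filter there, with 1 count in BC57 and 106 in urothelium.

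SMARTer FF libraries of 2 ng shared the most calls with the poly(A) libraries. Bst2 had 21.3, 20.5 and 19.5 CPM in BC57, against 5.15, 1.46 and 4.65 CPM in urothelium (log2 fold change 2.46), Oas3 had 15.5, 16.7 and 11.3 CPM in BC57, against 0.996, 0 and 0.423 CPM in urothelium (4.88), and Oasl2 had 51.4, 51.1 and 49.3 CPM in BC57, against 11.95, 11.2 and 13.1 CPM in urothelium (2.07). Ifitm1 had 1 count in BC57 and 97 in urothelium (94.7 times lower, 16.6 to 3778). Gbp3 had 1.33, 3.45 and 3.18 CPM in BC57, against 18.3, 22.9 and 16.3 CPM in urothelium (-2.79), and Ifit3 had 1.99, 2.15 and 1.79 CPM in BC57, against 10.3, 6.82 and 6.55 CPM in urothelium (-1.98). No libraries of the sources overlapped for these 6 genes. At 250 pg of FF RNA, Oas1a had 120 counts in BC57 and 2 in urothelium (55.2 times higher, 14.9 to 461), Oas3 had 15.8, 19.9 and 10.8 CPM in BC57, against 0, 0.165 and 1.36 CPM in urothelium (4.91), and Oasl2 had 35.4, 39.03 and 57.6 CPM in BC57, against 7.502, 1.49 and 3.501 CPM in urothelium (3.41). Usp18 had 6.97, 8.70 and 9.67 CPM in BC57, against 28.9, 21.3 and 21.6 CPM in urothelium (-1.49, adjusted p = 0.00615). OAS genes thus had the largest positive fold changes of the members named at 250 pg of FF RNA. Gbp7 had 1.34, 5.30 and 8.11 CPM in BC57, against 26.2, 19.4 and 11.3 CPM in urothelium (-1.90, adjusted p = 0.0217), not called without urothelium library 1 or 2 (0.105 and 0.0541), and Rsad2 had 0.804, 2.31 and 0 CPM in BC57, against 7.14, 7.12 and 7.98 CPM in urothelium (-2.79, adjusted p = 0.0480), not called without any one of the libraries other than BC57 library 2 (0.0751 to 0.111).

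SMARTer FFPE libraries gave few calls, and leaving out a single library changed how many there were. At 2 ng, Bst2 had 19.8, 12.1 and 14.7 CPM in BC57, against 0.821, 1.95 and 2.10 CPM in urothelium (log2 fold change 3.30, adjusted p = 0.00866), Oasl2 had 60.1, 63.3 and 56.3 CPM in BC57, against 12.6, 17.5 and 11.5 CPM in urothelium (2.08, adjusted p = 0.00227), and Samhd1 had 183, 176 and 159 CPM in BC57, against 72.8, 74.5 and 69.2 CPM in urothelium (1.26, adjusted p = 0.00986). The lower members were Ifitm1, with 3 counts in BC57 and 81 in urothelium (33.8 times lower, 11.2 to 167, adjusted p = 0.0102), Gbp2, with 5.54, 3.97 and 1.73 CPM in BC57, against 21.6, 20.9 and 29.4 CPM in urothelium (-2.63, adjusted p = 0.00983), and Usp18, with 7.004, 2.87 and 9.10 CPM in BC57, against 17.8, 19.2 and 31.4 CPM in urothelium (-1.85, adjusted p = 0.0391). None of these overlapped. Yet Bst2, Samhd1, Ifitm1, Gbp2 and Usp18 each lost the call without BC57 library 1, BC57 library 2, urothelium library 1 or urothelium library 2, the libraries that did not stand apart (adjusted p 0.0564 to 0.152). The number of calls was 9 with all libraries, 1 if BC57 library 1, BC57 library 2 or urothelium library 1 was left out, 2 without urothelium library 2, 7 if BC57 library 3 was left out and 14 if urothelium library 3 was. Without both libraries 3 it was 21 (7 higher, 14 lower), which included the 9. How many of all genes were called without them is not given, so these counts do not single out the members. By DESeq2, which scales libraries by median ratios, 16 members were called, 4 higher and 12 lower, and by limma on the authors' scaled log2 values 5, of which 3 were higher and 2 lower.

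Library 3 of the urothelium SMARTer FFPE 2 ng group was compared with its companions gene by gene. It was above both other libraries for 23 of the 37 members tested (62.2%) and below both for 10 (27%), against 43% and 46.3% of the 14974 genes tested, and its 39 members summed to 1210 CPM, against 744 and 819 CPM. Oas3 had 17.2, 16.3 and 26.4 CPM in BC57, against 0.274, 0.278 and 41.9 CPM in urothelium, so that of the urothelium libraries only library 3 was high. Its log2 fold change was 0.67 (adjusted p = 0.761) with all libraries and 5.77 (adjusted p = 2.021e-06) without both libraries 3. Mx1 had 0, 0.882 and 6.93 CPM in BC57, against 1.64, 2.50 and 45.1 CPM in urothelium, and Xaf1 had 6.42, 7.06 and 6.93 CPM in BC57, against 9.85, 10.0 and 58.7 CPM in urothelium. Mx2 had 1.17, 0 and 5.63 CPM in BC57, against 4.38, 3.06 and 26.2 CPM in urothelium. In each of these 4 genes the highest value belonged to urothelium library 3. Oas1a likewise had a log2 fold change of 0.32 with all libraries and 2.69 without both libraries 3. Ifitm1, Bst2 and Samhd1, by contrast, had 10.5, 2.10 and 69.2 CPM in urothelium library 3, near their values in libraries 1 and 2. The part of the library's low count total in these values was not tested.

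**Figure D3:**
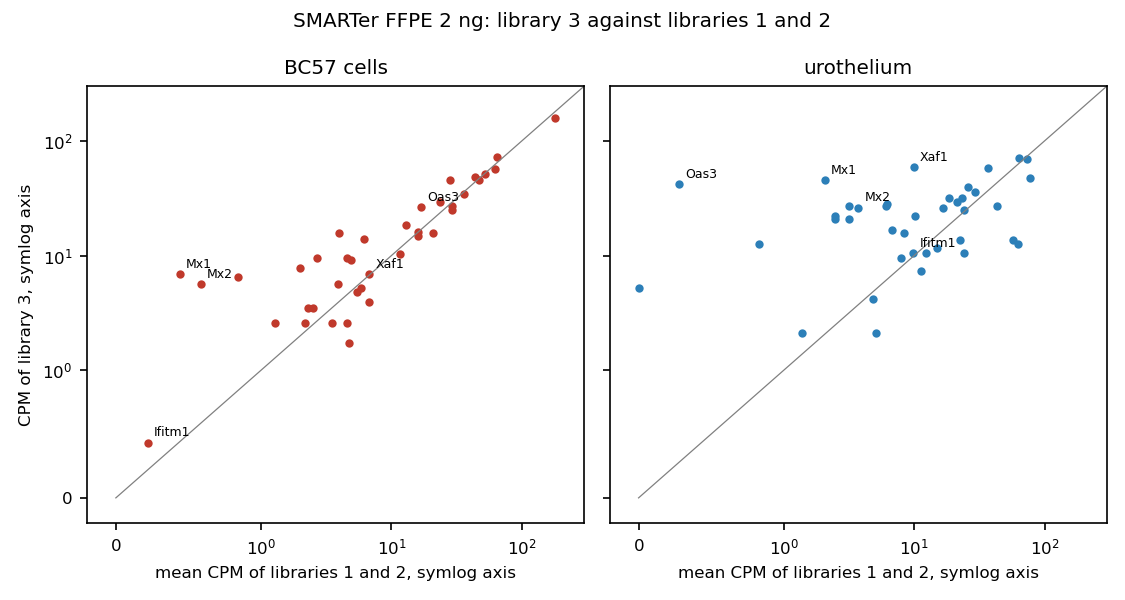
CPM of each member in library 3 (vertical axis) against the mean of libraries 1 and 2 (horizontal axis) of the SMARTer FFPE 2 ng groups, with BC57 cells on the left and urothelium on the right, both axes symmetric-log and the grey line marking equality. In urothelium, Oas3, Mx1, Mx2 and Xaf1 lie far above the line, while Ifitm1 lies near it.

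With SMARTer at 250 pg of FFPE RNA, Ifitm1 was the single member called, at 0 in BC57, against 30.9, 8.65 and 4.28 CPM in urothelium (0 counts against 122, at least 51.4-fold lower, adjusted p = 0.0479). With the replicate number as a block its adjusted p was 0.14, and the number of calls was 0 without any one of 5 of the 6 libraries and 5 without urothelium library 3. The calls without both libraries 3 also numbered 5, with Samhd1 higher by 1.24, Oas3 and Oasl1 higher, and Ifitm3 lower by -1.76 beside Ifitm1. Oas3 had 17.5, 46.96 and 24.2 CPM in BC57, against 0, 0 and 8.55 CPM in urothelium, where the library with a value was again library 3. Of the 28 members tested, 27 were not called, and the part of depth and of the spread between libraries in this was not tested.

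Across the 11 comparisons, 25 members were tested in every one. Of all 39, 8 never had a negative and 17 never a positive log2 fold change where they were tested, and 0 were called both higher and lower. These shares were 20.5%, 43.6% and 0%, against 27.4%, 40.8% and 1.79% of the 18824 genes tested at least once, so agreement of signs was about as common over all genes. Oasl2 and Samhd1 were higher in 10 of 11 comparisons, with log2 fold changes of 1.08 to 3.41 and of 1.22 to 1.92, so that Samhd1 had the narrower range. Bst2 was higher in 9 of 11 (1.58 to 3.52), and Irf1 and Oas3 in 8 of 11. Usp18 was lower in 10 of 11 (-4.58 to -0.61) and Ifitm1 in all 10 in which it was tested. Gbp7 (-2.58 to -1.59) and Parp14 (-2.64 to -0.94) were lower in 9 of 11, and Ifih1 in 7. Stat2, Irf9, Ifitm3 and Gbp2 were lower in 6 of 11, and Gbp3 in 6 of 10. Mx1 and Igtp were called in no comparison, Mx1 being tested in 1 and Igtp in 11. These comparisons draw on the same cell sources and are not independent of each other.

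**Figure D4:**
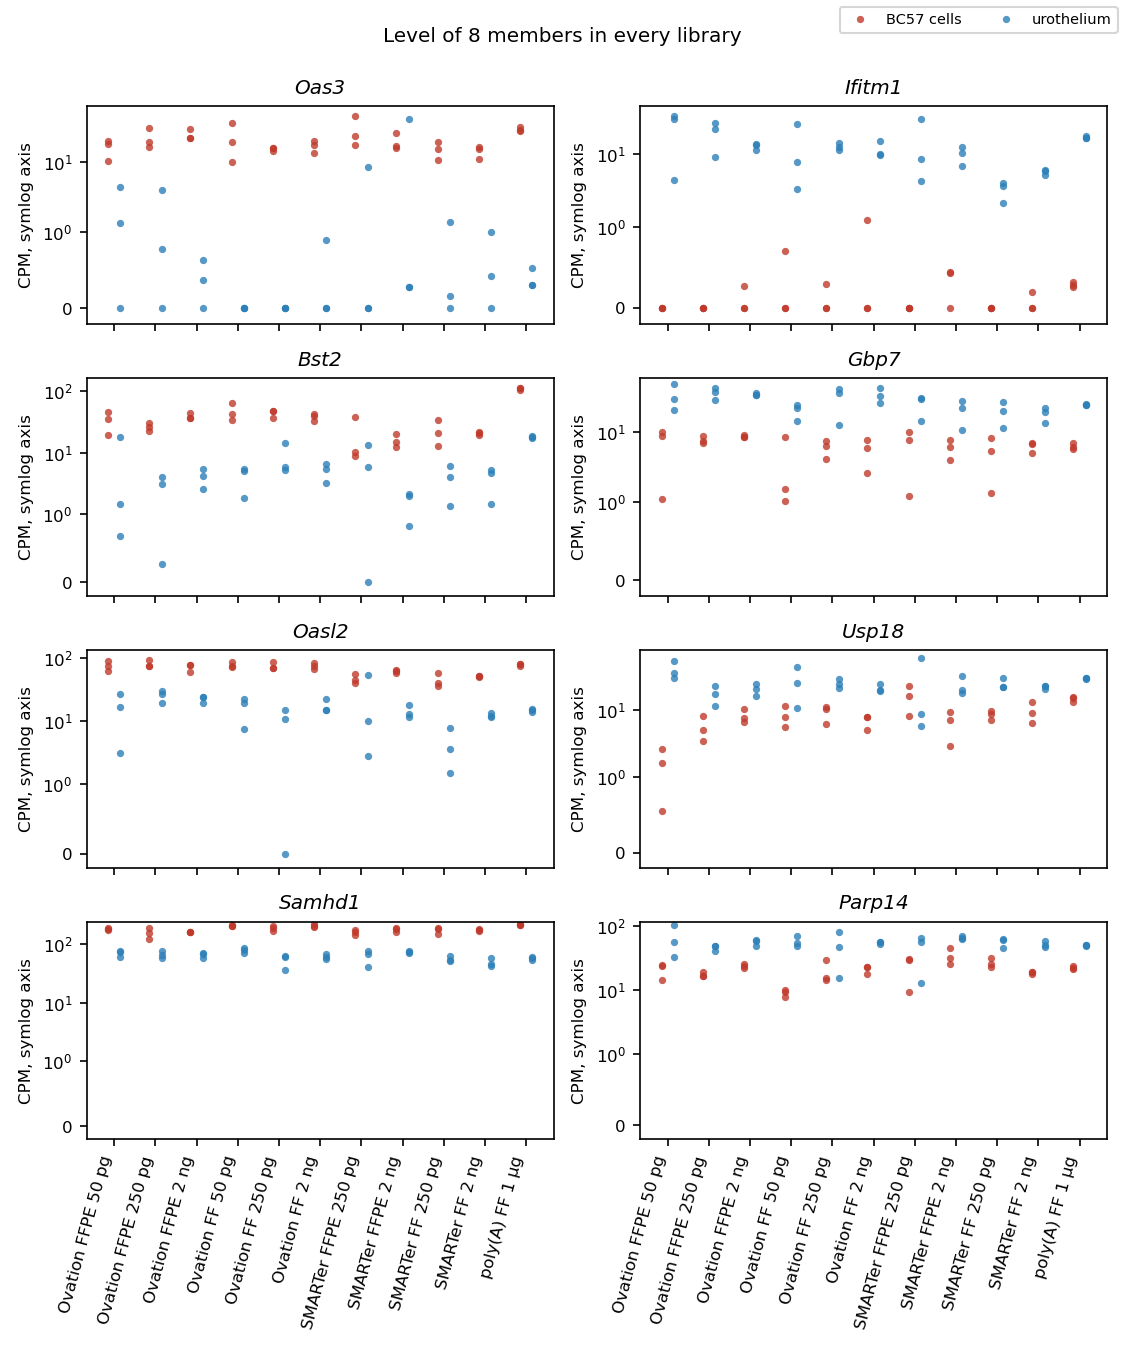
Level of 8 members in every library of the 11 comparisons, in CPM on a symmetric-log axis, with a point per library for BC57 cells (left of each pair) and urothelium (right). Oas3, Bst2, Oasl2 and Samhd1 are higher in BC57 and Ifitm1, Gbp7, Usp18 and Parp14 lower in most conditions, and the urothelium Oas3 point at 41.9 CPM is library 3 of SMARTer FFPE 2 ng.

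Isg15, which gave a clear difference in poly(A) libraries, was tested in no low-input comparison because too few libraries passed the count minimum. Its poly(A) counts were 274, 153 and 286 in BC57, against 84, 95 and 136 in urothelium. With SMARTer FF at 2 ng it had 17, 17 and 8 counts in BC57, against 3, 6 and 5 in urothelium, and at 250 pg 24, 5 and 14 counts in BC57, against 1, 0 and 0 in urothelium (ratio 39.5, 6.73 to 1597). These were higher in every BC57 library. With Ovation FFPE at 250 pg it had 14, 11 and 5 counts in BC57, against 2, 0 and 1 in urothelium (ratio 8.79, 2.73 to 45.01). With Ovation FF at 50 pg it had 1, 0 and 0 counts in BC57, against 23, 0 and 0 in urothelium, so that 1 library held all but 1 of the counts. With Ovation FF at 2 ng it had 1, 4 and 4 counts in BC57, against 1, 1 and 7 in urothelium, an overlap. The intervals cover counting error only.

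The spread between repeat libraries was smallest in poly(A) libraries. Among members with at least 5 CPM, the median coefficient of variation was 3.42% in BC57 and 4.09% in urothelium poly(A) libraries. With Ovation it was 41.8% in BC57 and 44.3% in urothelium at 50 pg of FFPE RNA, 20.9% and 29.8% at 250 pg, and 11.1% and 11.4% at 2 ng. With FF RNA it was 35.5% in BC57 and 41.1% in urothelium at 50 pg, 22.5% and 48.2% at 250 pg, and 14.5% and 13.96% at 2 ng. With SMARTer it was 34.1% in BC57 and 92.8% in urothelium at 250 pg of FFPE RNA, 19.9% and 40.8% at 2 ng, and with FF RNA 30.1% and 29.2% at 250 pg and 13.4% and 13.7% at 2 ng. The largest value was that of the urothelium SMARTer FFPE libraries of 250 pg, where the median over all genes at that level was 88.1%.

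The next question was what formalin fixation did to the members' measured RNA within 1 cell source. In BC57 Ovation libraries of 2 ng, 4 of 30 members tested were higher in FFPE than in FF RNA and 3 were lower, a share of 23.3% against 32.3% of all genes tested (16.6% higher, 15.6% lower). Ifitm2 had 48.5, 50.9 and 33.2 CPM in FFPE, against 27.4, 31.2 and 26.6 CPM in FF libraries (log2 fold change 0.63, adjusted p = 0.00262), without overlap. Rsad2 had 6.61, 8.83 and 11.3 CPM in FFPE, against 5.32, 1.76 and 5.49 CPM in FF libraries (1.08, adjusted p = 0.0234), and Oas3 had 23.2, 23.1 and 30.9 CPM in FFPE, against 13.1, 17.1 and 19.9 CPM in FF libraries (0.63, adjusted p = 0.0138). The fourth was Ifitm3 (0.33, adjusted p = 0.0387). The Ifitm3 call ended by DESeq2, without the filter on low counts, and without FF library 1, 2 or 3 or FFPE library 2. Rsad2 was not called without FF library 2 or FFPE library 3 (0.176 and 0.103), and Oas3 not without FF library 1 or FFPE library 3 (0.114 and 0.0861).

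Among the lower members in BC57, Samhd1 had 161, 162 and 162 CPM in FFPE, against 184, 209 and 195 CPM in FF libraries (log2 fold change -0.28, adjusted p = 0.0044). Irf1 had 31.4, 34.4 and 36.6 CPM in FFPE, against 43.8, 46.1 and 54.1 CPM in FF libraries (-0.49, adjusted p = 0.00598), not called without FF library 3 (0.0587). Ifit1 had 3.31, 3.35 and 2.32 CPM in FFPE, against 7.78, 4.83 and 5.91 CPM in FF libraries (-1.05, adjusted p = 0.039), a call that ended without any one of the 6 libraries (0.0554 to 0.223). All 3 genes had FFPE libraries below every FF library. Without FF library 1, 2 or 3 or FFPE library 3, 4 of the 7 calls were left. Without FF library 3, 5 members were called in all, including a call not among the 7. These counts moved with the scaling: with limma on the log2 values that the authors scaled, the median of all genes was 0.27 in place of 0, 11 members were higher and 0 lower, and Samhd1 and Irf1 were at -0.01 and -0.22 and not called.

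In urothelium with the same kit and input, 2 of 31 members were higher in FFPE and 1 was lower, 9.68% against 37.3% of all genes tested (19.3% higher, 17.9% lower). Ifitm2 had 67.5, 66.3 and 80.3 CPM in FFPE, against 39.2, 41.8 and 47.7 CPM in FF libraries (log2 fold change 0.73, adjusted p = 1.426e-05). Ifitm3 had 83.3, 110 and 89.0 CPM in FFPE, against 67.2, 58.1 and 66.7 CPM in FF libraries (0.55, adjusted p = 0.000185). Ifitm2 was thus called higher in FFPE libraries of both cell sources, as was Ifitm3, whose BC57 call ended under several alternatives. Eif2ak2 had 42.7, 35.7 and 39.2 CPM in FFPE, against 54.8, 65.7 and 52.9 CPM in FF libraries (-0.55, adjusted p = 0.00161). With the authors' scaling the median of all genes was 0.15, and 4 members were higher and 1 lower.

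The difference between cell sources in the effect of fixation was tested as an interaction over the 12 Ovation libraries of 2 ng, in which 1 of 33 members was called, against 5.9% of all genes. Samhd1 had an interaction of -0.47 (SE 0.142, adjusted p = 0.0339): it was lower in FFPE than in FF BC57 libraries, and had 59.5, 71.3 and 68.6 CPM in FFPE urothelium, against 58.02, 52.96 and 65.9 CPM in FF urothelium, which overlap. The call ended without any one of 9 of the 12 libraries (adjusted p 0.0543 to 0.159), and stayed without BC57 FF library 1, urothelium FFPE library 1 or urothelium FF library 3.

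In SMARTer libraries of 2 ng, fixation gave 1 higher and 1 lower of 33 members in BC57, 6.06% against 17.8% of all genes tested (9.25% higher, 8.57% lower). Parp14 had 22.9, 28.3 and 42.2 CPM in FFPE, against 18.8, 17.1 and 18.9 CPM in FF libraries (log2 fold change 0.75, adjusted p = 0.0227), and was not called without FFPE library 3 or any one FF library (0.0559 to 0.112). Gbp2 had 5.06, 3.61 and 1.61 CPM in FFPE, against 7.14, 15.7 and 11.3 CPM in FF libraries (-1.68, adjusted p = 0.0121), and was not called without FF library 2 (0.119). Without FF library 2, 0 members were called, and without FF library 1, FF library 3 or FFPE library 3, 1 was. Neither gene's libraries overlapped. With the replicate number as a block, since libraries of the same number deviated together, 4 members were called, with Stat2 (0.53, adjusted p = 0.0422) and Ifih1 (0.89, adjusted p = 0.021) added on the higher side. In urothelium edgeR called 0 of 33 members, against 1.55% of all genes (1.16% higher, 0.393% lower), with 2 members at an unadjusted p under 0.05 and 1 called by DESeq2. Without urothelium FFPE library 3, 2 were higher in FFPE urothelium, Ifitm2 (0.68, adjusted p = 0.00201) and Samhd1 (0.45, adjusted p = 0.0288).

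**Figure D5:**
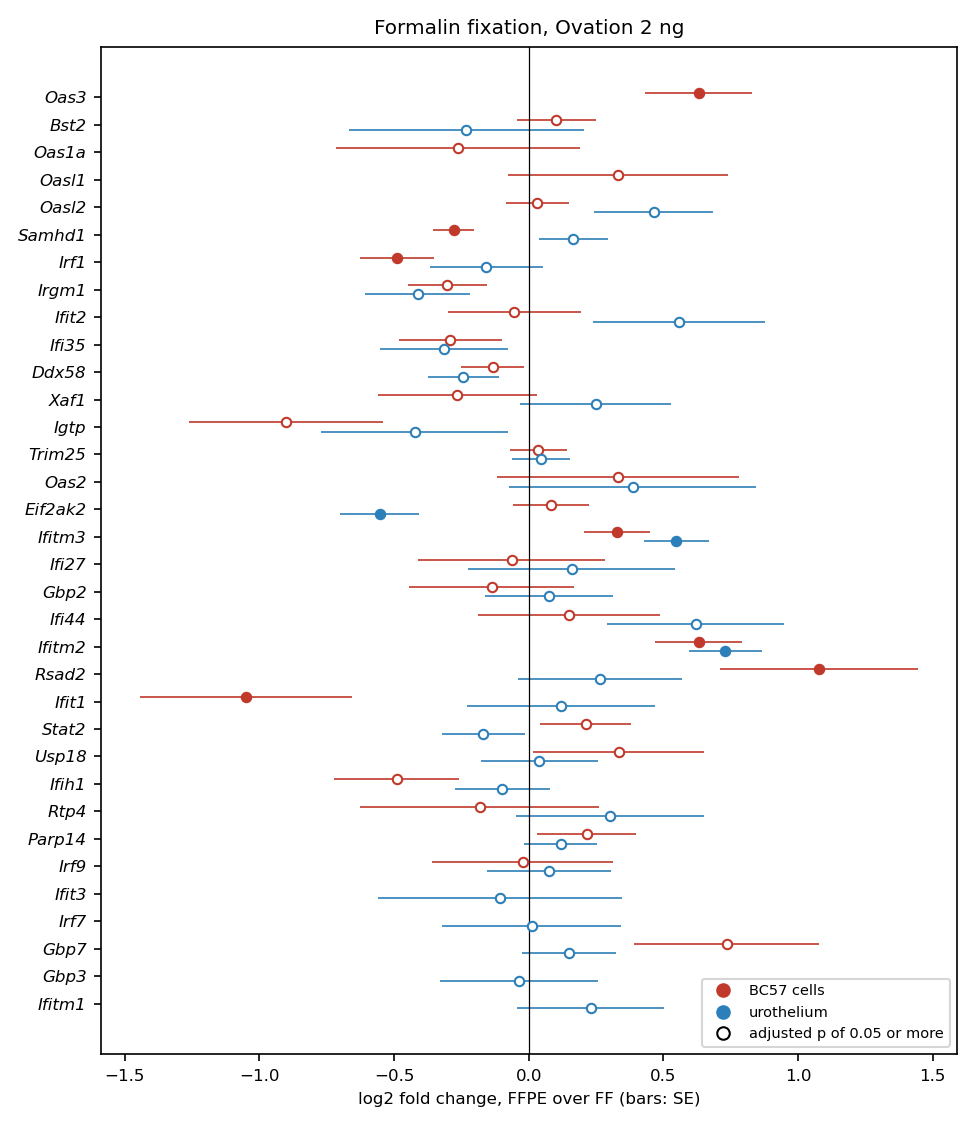
Log2 fold change of FFPE over FF for each member tested in Ovation libraries of 2 ng, in BC57 cells and in urothelium, with bars showing the SE and open points an adjusted p of 0.05 or more. Most points lie near 0; Ifitm2 is at 0.63 in BC57 and 0.73 in urothelium, and Samhd1 is at -0.28 in BC57.

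The last comparison asked what the smallest input did to the members in FF Ovation libraries of 1 cell source. Between 50 pg and 2 ng, edgeR and DESeq2 called 0 of 29 members in BC57 (0.0266% of all genes) and 0 of 31 in urothelium (0% of all genes). At an unadjusted p under 0.05 there were 2 members in BC57, Parp14 (-1.13) and Oasl1 (1.497), and 1 in urothelium, Ifitm2 (0.62). The members' median log2 difference of 50 pg over 2 ng was 0.13 in BC57 and 0.14 in urothelium, against 0.01 and 0.02 over all genes.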

How the data were processed

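The deposited count tables hold raw counts per gene and library, which the authors made on mm10 with STAR, SAMtools and featureCounts (no versions stated), per the submitters' processing notes. The deposited log2 tables are the authors' upper-quartile scaled values of the same counts. The sources used here give neither the gene annotation nor the strand setting of counting, so reads of overlapping genes and close gene copies cannot be assigned with certainty. Gene symbols came from GENCODE M21, which named 37607 of 39179 identifiers. The members and lists were chosen with earlier results of these data known.

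Each comparison was fitted alone with edgeR 4.0.16 in R 4.3.3 (filterByExpr, TMM scaling, quasi-likelihood test, Benjamini-Hochberg adjustment over all genes tested, adjusted p under 0.05 counted as a call). CPM are TMM-scaled within a comparison, so the same library differs slightly between comparisons. Library sums of members and markers are unscaled CPM. SE is that of the log2 fold change. A group at 0 was set to a floor of 3 counts in all its libraries together, and low counts got an exact 95% interval; both cover counting error only. Values per library were given for the 6 higher and 6 lower members of largest fold change in poly(A) libraries, and for up to 3 a direction elsewhere, among those called whose higher group averaged 5 CPM or more; other members were named by role.

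The alternatives were DESeq2 1.42.0, its size factors in edgeR, no filter, limma 3.58.1 on the authors' log2 values, thinning of poly(A) libraries, leaving out libraries, and a replicate block. Libraries of the same number deviated together, with every pair's correlation over 0.1, in the SMARTer comparisons of BC57 with urothelium at FF 2 ng, FFPE 2 ng and FFPE 250 pg, and in BC57 FFPE against FF with SMARTer; no label says that a number marks a shared batch.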

Additional observations from a re-analysis of the deposited data

Results flagged for a closer look

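Samhd1 differed between the cell sources in the effect of fixation in Ovation libraries of 2 ng, by an interaction of -0.47 on the log2 scale (edgeR, SE 0.142, adjusted p = 0.0339). In BC57 cells it was lower in FFPE than in FF libraries, by -0.28, with no overlap between 161, 162 and 162 CPM in FFPE and 184, 209 and 195 CPM in FF. In urothelium it was at 59.5, 71.3 and 68.6 CPM in FFPE and at 58.02, 52.96 and 65.9 CPM in FF libraries and was not called. The call ended without any one of 9 of the 12 libraries (adjusted p 0.0543 to 0.159), without the filter on low counts (0.0879) and by limma on the authors' log2 values (-0.34, adjusted p = 0.158). With the replicate number as a block its adjusted p was 0.02.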

How the results depend on the processing

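Of the 78 called results chosen by the naming rule, 0 reversed under the alternatives in which the gene was still tested. In those alternatives 24 lost the call at least once, 23 of them without a single library. A result whose gene did not pass the low-count filter under an alternative was not counted as lost there. With poly(A) libraries thinned, only 21 of the 39 members were tested. Counts of members called moved by over 1.5 times as follows, and the cause was not tested. Shares of all genes called under these alternatives are not given, so the moves cannot be read as particular to the members. BC57 against urothelium gave 16 with poly(A) libraries thinned (fewer genes tested). For SMARTer FFPE at 2 ng it gave 16 by DESeq2, 3 without the filter on low counts, 5 by limma and 21 without both libraries 3, against 9; at 250 pg it gave 4, 0, 3 and 5, against 1. Fixation in BC57 Ovation libraries gave 4 by DESeq2 and 11 by limma, against 7; in urothelium 5 by limma, against 3. Fixation in SMARTer libraries gave 0 by limma and 1 without library 3 in BC57, against 2, and 1 by DESeq2 and 2 without FFPE library 3 in urothelium, against 0. The interaction gave 0 without the filter, against 1, and by limma 1 other member, higher. Leaving out 1 library in turn gave 35 to 36 calls in poly(A), 22 to 25 in Ovation FFPE 2 ng, 19 to 23 in FF 2 ng, 10 to 15 in FFPE 250 pg, 8 to 21 in FF 250 pg, 6 to 9 in FFPE 50 pg and 8 to 12 in FF 50 pg. It gave 1 to 14 in SMARTer FFPE 2 ng, 22 to 25 in FF 2 ng, 0 to 5 in FFPE 250 pg and 11 to 13 in FF 250 pg. It gave 4 to 6 and 3 to 4 for fixation with Ovation and 0 to 3 and 0 to 2 with SMARTer, in BC57 and urothelium, 0 to 0 for input, and 0 to 2 for the interaction. With the authors' scaling the median of all genes moved by over 0.1 in several comparisons, most for SMARTer FFPE 250 pg (0.39 in place of -0.14) and for 50 pg over 2 ng (-0.35 in BC57 and -0.39 in urothelium, in place of 0.01 and 0.02). Without the filter on low counts, 10 members were called in Ovation FFPE 50 pg (4 higher, 6 lower) and 4 for fixation of urothelium with Ovation (2 each way).

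The replicate block, where same-numbered libraries did not deviate together, is only a hint from shared numbers. It gave 35 calls in poly(A), 23 and 21 in Ovation FFPE and FF 2 ng, 13 and 9 (5 higher, 4 lower) in FFPE and FF 250 pg, 6 and 10 in FFPE and FF 50 pg, and 10 (6 higher, 4 lower) in SMARTer FF 250 pg. Where the numbers paired, the block gave 9 and 23 calls in SMARTer FFPE and FF 2 ng, 0 in place of 1 in FFPE 250 pg and 4 in place of 2 for fixation of BC57 with SMARTer. It gave 2 in place of 1 for the interaction, adding Eif2ak2 (0.61, adjusted p = 0.0473), and changed no other count by over 1.5 times. Members that did not pass the low-count filter in low-input libraries had no test there.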
